A study of Mus musculus with 6 samples.

Results

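The genes described here write, copy and erase the methyl mark on DNA in mouse embryonic stem cells, together with Dppa3, a maternal and germ cell protein that binds Uhrf1. They were chosen by name, as 9 genes whose symbol had to be the sole annotation of a probe set: Dppa3, Dnmt1, Dnmt3a, Dnmt3b, Dnmt3l, Uhrf1, Tet1, Tet2 and Tdg. Of these, 8 were measured, on 20 of the 45101 probe sets, and they stand among 18193 named genes in all. No probe set was annotated to Tdg alone. The 3 that carry its name are shared with its pseudogenes Tdg-ps and Tdg-ps2, and they were not used. RNA came from R1 cells, a line of (129X1 x 129S1)F1 background. The 3 samples labelled Sirt1+/+ had intact Sirt1, which encodes an NAD-dependent deacetylase, and the 3 labelled Sirt1-/- had none, and all grew on gelatin in a serum medium that held the cytokine LIF, which sustains self-renewal. Each sample was read on 1 Affymetrix 3' expression array, and values are log2 RMA levels, so that a difference of 1 is a doubling. The labels name a single wild-type and a single knockout source, so Sirt1 loss and other differences between the sources cannot be told apart. They do not say how Sirt1 was deleted or whether the samples of a genotype were separate cultures, and the p-values thus rest on a spread between samples that may be technical.

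DNA methylation in mammals sits mainly on the cytosine of CpG dinucleotides. Dnmt3a and Dnmt3b place new marks, helped by the inactive cofactor Dnmt3l, while Dnmt1 copies marks onto the new strand at replication, guided by Uhrf1. Tet1 and Tet2 oxidise the methyl group, after which Tdg can excise the base. Embryonic stem cells in serum are known for high Dnmt3l and Tet1, and Dppa3 is known to be expressed in a fluctuating fraction of cells in serum culture.

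The de novo writers and their cofactor Dnmt3l are shown first by the sequence in front of their annotated starts. They did not all change in the same direction between the genotypes, and their starts differ in CpG content. A link between these was not tested. The windows are the 250 bases upstream of a RefSeq start on GRCm38.p6, read 5′ to 3′ on the gene's strand, with every CpG (the motif CG, which reads the same on both strands) in capitals. The outermost and innermost of the 3 Dnmt3a starts are given, since a short form of Dnmt3a abundant in stem cells is known to start inside the gene.
Dnmt3a, outermost start, chr12:3806730-3806979, plus strand: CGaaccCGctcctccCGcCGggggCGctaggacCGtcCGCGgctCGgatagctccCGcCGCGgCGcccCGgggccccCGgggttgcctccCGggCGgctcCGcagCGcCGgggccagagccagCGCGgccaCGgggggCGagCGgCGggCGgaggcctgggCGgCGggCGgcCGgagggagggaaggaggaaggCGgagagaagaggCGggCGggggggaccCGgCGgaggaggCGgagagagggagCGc
Dnmt3a, innermost start, chr12:3891494-3891743, plus strand: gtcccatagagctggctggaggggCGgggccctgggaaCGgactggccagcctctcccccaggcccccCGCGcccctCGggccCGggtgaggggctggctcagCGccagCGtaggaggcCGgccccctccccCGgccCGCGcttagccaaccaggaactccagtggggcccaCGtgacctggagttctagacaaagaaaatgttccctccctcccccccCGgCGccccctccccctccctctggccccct
Dnmt3b, chr2:153649199-153649448, plus strand: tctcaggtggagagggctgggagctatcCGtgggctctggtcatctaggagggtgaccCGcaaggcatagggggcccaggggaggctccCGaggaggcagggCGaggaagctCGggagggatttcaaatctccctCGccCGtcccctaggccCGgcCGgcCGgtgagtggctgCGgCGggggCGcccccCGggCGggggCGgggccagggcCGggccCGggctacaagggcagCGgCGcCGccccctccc
Dnmt3l, outermost start, chr10:78042037-78042286, plus strand: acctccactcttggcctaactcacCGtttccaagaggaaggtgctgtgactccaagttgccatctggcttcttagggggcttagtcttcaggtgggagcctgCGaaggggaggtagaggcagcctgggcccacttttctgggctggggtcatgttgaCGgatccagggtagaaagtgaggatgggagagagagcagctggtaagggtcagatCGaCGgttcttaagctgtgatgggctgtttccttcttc

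These windows held 38 CpGs at the outermost Dnmt3a start, 15 at the innermost, 21 at Dnmt3b and 5 at the outermost Dnmt3l start. Over all 32851 windows in the table the median was 6, and 92.1% held at least 1. RefSeq windows were matched for 8 of the 9 genes, with Tdg among them and Dppa3 not, 15 windows in all. The Tet2 window, with 51 CpGs, was denser than 99.9% of all windows, and the Tet1 window held 15. The 3 Dnmt3l starts held 5, 4 and 3 CpGs. Methylation itself was not measured, and the positions of the array probes relative to these starts were not analysed here.

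The libraries were alike. Array medians lay between 4.51 and 4.57, and Pearson's r across genes, which are not independent replicates, was at least 0.997 within a genotype and at least 0.989 between genotypes. Sirt1 RNA was lower in the knockout, at 10.16 ± 0.06 and 8.05 ± 0.14 (SD, n = 3 each). The stem cell markers Pou5f1, Sox2, Nanog, Zfp42 and Utf1 were at or above 10.01 on every array. Of 14 endoderm markers 10 were lower in the knockout and none higher in limma (0 at an unadjusted p under 0.05), and their summed linear level was 2343 to 2480 in wild type and 766 to 805 in knockout. Srgn fell by 2.38 and Cubn by 2.24, Dab2 fell by 1.80, and Pdgfra fell by 1.52. Of 12 fibroblast markers, which would report feeder cells, 2 were higher and 3 lower. Their summed linear level was 4261 to 4388 in wild type and 5837 to 6062 in knockout. In all genes together, 12.5% were higher and 17.5% lower in the knockout. The intermediate filament gene Vim rose by 1.28, from 9.22 to 10.51, and the fibronectin gene Fn1 by 0.35, from 11.69 to 12.04. These 2, the brightest of the fibroblast markers, make up most of their summed level. Thy1 fell by 1.07, Col5a1 by 0.63 and Pdgfrb by 0.50, from the lower wild-type levels of 6.23, 6.12 and 7.49. The collagen genes Col1a1, Col1a2 and Col3a1 had group means no higher than 3.61, near the arrays' lower quartile of 3.16 to 3.24, and did not pass. The poly-A controls, added before labelling, read 7.00 to 7.15 in wild type and 7.15 to 7.37 in knockout, with overlap. The part of the endoderm markers, the fibroblast markers and these controls in the results that follow was not tested.

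Between the genotypes Dppa3, Dnmt3a and Dnmt3l were higher in the knockout, and Dnmt3b, Tet1 and Tet2 were lower, while the maintenance pair Dnmt1 and Uhrf1 did not pass the test. Of the 8 measured genes 6 passed in limma (Benjamini-Hochberg, adjusted p under 0.05). Over all genes 30.0% passed, 12.5% as higher and 17.5% as lower. The arrays of the genotypes did not overlap for 7 of the 8 genes, against 43.8% of all genes. The median change of the 8 was 0.08 on the log2 scale, against -0.01 over all genes.

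**Figure D1:**
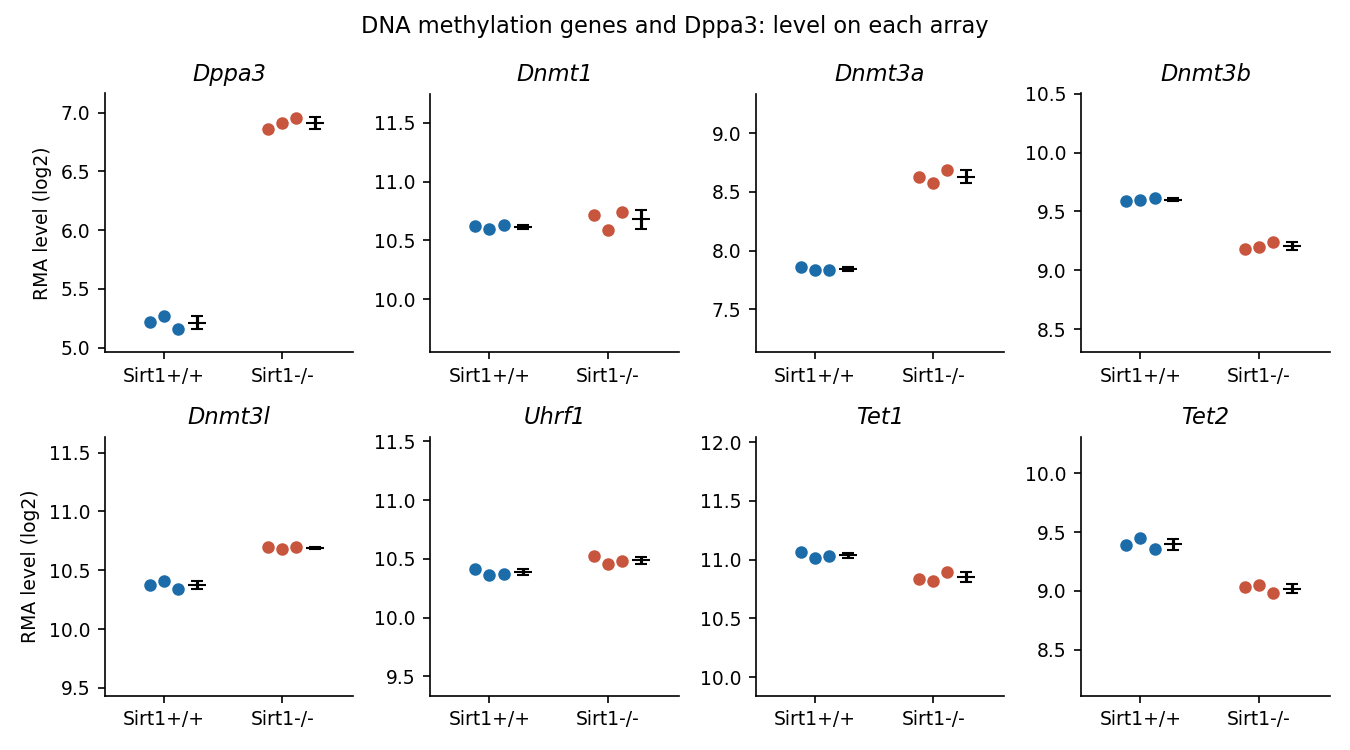
RMA level (log2, vertical axis) of each measured gene on its brightest probe set, with 1 point per array for 3 Sirt1+/+ and 3 Sirt1-/- samples, and the mean with its SD as a black bar; every panel spans the same height. Dppa3 moves furthest, from about 5.21 to 6.91, and Dnmt1 is the gene whose arrays overlap.

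Dppa3 was the member with the largest difference. Its single probe set read 5.21, 5.27 and 5.16 on the wild-type arrays against 6.86, 6.92 and 6.96 on the knockout arrays. Every knockout array lay above every wild-type array, with a gap many times the spread within a genotype. The log2 change was 1.70 (SE 0.05), or 3.24-fold (limma, adjusted p = 2.89e-05), and 11 named genes that passed rose further. More cells with Dppa3 RNA and more Dppa3 RNA per cell cannot be told apart in bulk RNA, and the same holds for each gene below. By exact two-sided permutation of the arrays p was 0.1, below which 3 against 3 cannot go.

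Dppa3 lies on chromosome 6 beside Nanog and Gdf3, genes also expressed in pluripotent cells, and the genes around it moved in both directions. Of the 5 nearest measured genes on each side, Apobec1, a cytidine deaminase, rose by 0.64 and Necap1 by 0.31. Nanog, a core pluripotency factor and the next measured gene, fell by 0.90, the glucose transporter gene Slc2a3 by 0.27, Rimklb by 0.32 and Mfap5 by 0.51. The Mfap5 call (limma, adjusted p = 0.0420) was lost in the fit over all probe sets (adjusted p = 0.0524). The TGF-beta family gene Gdf3, on the other side, read 8.12 ± 0.01 and 8.13 ± 0.06 (SD, n = 3 each), and Foxj2, C3ar1 and 1700063H04Rik also did not pass. The difference between Dppa3 and Nanog, taken within each array, shifted by 2.60 between the genotypes without overlap (exact two-sided permutation p = 0.1, adjusted p = 0.114 over 8 gene pairs). Another probe set of Slc2a3 read 0.11 and another of Rimklb 0.27, neither past the threshold.

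**Figure D2:**
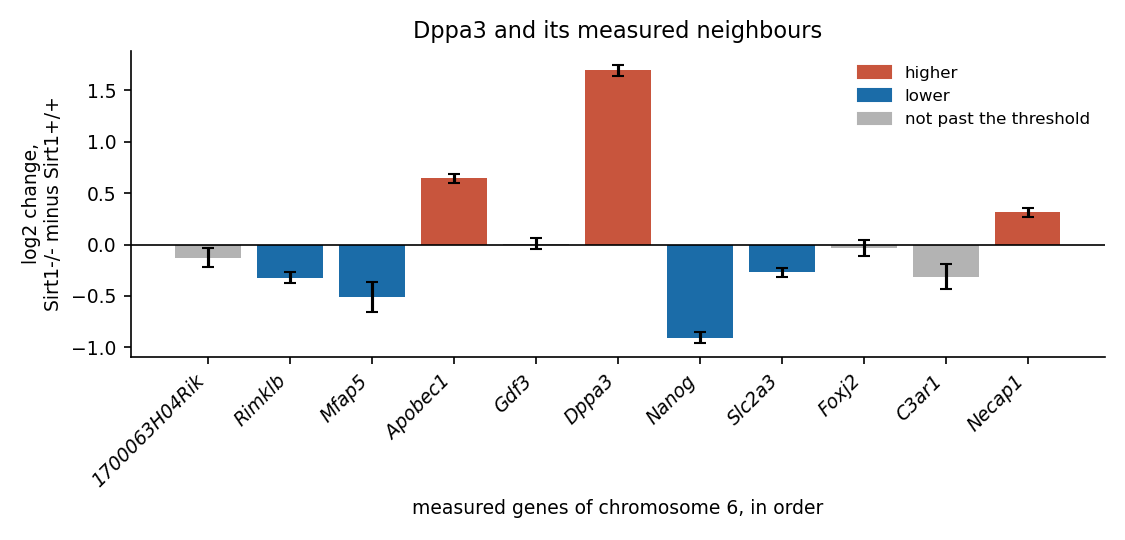
Log2 change (Sirt1-/- minus Sirt1+/+, vertical axis; error bars are the SE of the limma fit) of Dppa3 and the 5 nearest measured genes on each side, in chromosome order on the horizontal axis without distances. Dppa3 stands at 1.70 and Nanog, next to it, at -0.90.

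Dnmt3a, a writer of new marks that is raised as cells leave naive pluripotency, was higher in the knockout on its brightest probe set. The wild-type arrays read 7.87, 7.83 and 7.83 and the knockout arrays 8.63, 8.58 and 8.69. The genotypes did not overlap, and the log2 change was 0.79 (SE 0.05), or 1.72-fold (limma, adjusted p = 0.000139). Its 5 probe sets did not move alike. In the fit over all probe sets, where 19.8% passed, 1423064_at rose by 0.77 and 1423065_at by 0.28, while 1423063_at read 0.18 (adjusted p = 0.168) and 1460324_at read -0.02 (adjusted p = 0.900). The difference between the brightest probe set and 1460324_at shifted by 0.80 within arrays, that against 1423063_at by 0.61 and that against 1423065_at by 0.51, each without overlap. Each had p = 0.1 by exact two-sided permutation, with adjusted p = 0.171 over 12 pairs of probe sets. Against 1423064_at the shift was 0.02 (exact p = 0.8). All 5 are annotated with the same source sequence, and which transcript forms each of them reads was not analysed here. With the 5 averaged, the change was 0.40.

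Dnmt3b, the other de novo enzyme and the more abundant in implantation-stage epiblast, was lower in the knockout. Its brightest probe set read 9.59, 9.60 and 9.62 with Sirt1 and 9.18, 9.19 and 9.24 without it, so that every knockout array was below every wild-type array. It was 1.31-fold lower, a log2 change of -0.39 with an SE of 0.04 (limma, adjusted p = 0.00105). The other probe set fell by 0.35, and the difference between the probe sets did not shift beyond its spread (-0.04, exact permutation p = 0.6). On their brightest probe sets, the change of Dnmt3a exceeded that of Dnmt3b by 1.18 within arrays, without overlap. By exact two-sided permutation p was 0.1, the smallest possible, with adjusted p = 0.114 over 8 gene pairs. The size depends on the Dnmt3a probe set, since 1460324_at read -0.02.

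Dnmt3l, which lacks enzyme activity of its own and stimulates both de novo enzymes, was higher. Its single probe set read 10.37, 10.41 and 10.34 with Sirt1 and 10.70, 10.68 and 10.70 without it. The spread in the knockout was small, with an SD of 0.01, and the genotypes did not overlap. The log2 change was 0.32 (SE 0.04), or 1.25-fold (limma, adjusted p = 0.00233). Dnmt3l shifted against Dnmt3b by 0.71 within arrays, without overlap (exact permutation p = 0.1). Dnmt3a on its brightest probe set shifted against Dnmt3l by 0.46, also without overlap (exact permutation p = 0.1). This depends on the probe set. Dnmt3a probe sets 1423065_at, 1423063_at and 1460324_at changed by 0.28, 0.18 and -0.02, less than Dnmt3l, and 1423064_at by 0.77.

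The maintenance genes changed little. Dnmt1, the maintenance methyltransferase, read 10.63, 10.60 and 10.63 with Sirt1 and 10.72, 10.59 and 10.74 without it, with overlapping arrays. Its log2 change was 0.06, with a 95% interval of -0.07 to 0.20 (limma, adjusted p = 0.463). The changes on its dimmer probe sets, 0.10 and 0.09, also missed the threshold, although on each of these the arrays did not overlap. Uhrf1, which binds hemimethylated DNA and brings in Dnmt1, read 10.42, 10.37 and 10.38 with Sirt1 and 10.52, 10.46 and 10.48 without it. The arrays did not overlap, but the log2 change of 0.10, with an interval of -0.01 to 0.21, did not pass (limma, adjusted p = 0.156). Uhrf1 passed with an intensity trend and robust moderation (limma, adjusted p = 0.0167), the lowest of 16 other settings, over which the adjusted p reached 1. Its dimmer probe set read a change of 0.11.

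Among the erasers Tet2 was lower. It read 9.39, 9.45 and 9.35 with Sirt1 and 9.03, 9.05 and 8.98 without it, and the arrays did not overlap. The level was 1.30-fold lower, a log2 change of -0.38 with an SE of 0.05 (limma, adjusted p = 0.00190). Its dimmer probe set, 1438781_at, read -0.10 and did not pass (adjusted p = 0.404), and the difference between the pair shifted by -0.275, without overlap (exact permutation p = 0.1).

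Tet1, the eraser known to dominate in embryonic stem cells, was lower by an amount that depended on the probe set. The brightest, 1429448_s_at, read 11.06, 11.01 and 11.03 with Sirt1 and 10.83, 10.82 and 10.90 without it, without overlap. Its change was -0.18 (SE 0.05; limma, adjusted p = 0.0257 over genes). That call was lost without any of wild-type replicates 1, 2 and 3 or knockout replicates 1 and 2 (adjusted p = 0.0932, 0.0529, 0.0631, 0.0703 and 0.0842), and with all probe sets tested together (0.0624). A probe set of nearly the same brightness, 1455425_at, fell by 0.55 (adjusted p = 0.00117), from 11.11, 11.17 and 11.19 to 10.55, 10.62 and 10.65, and 1419896_at fell by 0.46 (adjusted p = 0.00933). The dim 1419897_at read -0.07 and did not pass. Between the brightest probe set and 1455425_at the difference shifted by 0.36 within arrays, without overlap (exact permutation p = 0.1, adjusted p = 0.171 over 12 pairs). Over all 20 probe sets of the 8 genes, 5 were higher and 5 lower in limma, where 19.8% of all probe sets passed. The 10 that did not pass included 1 or more of Dnmt1, Dnmt3a, Uhrf1, Tet1 and Tet2.

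**Figure D3:**
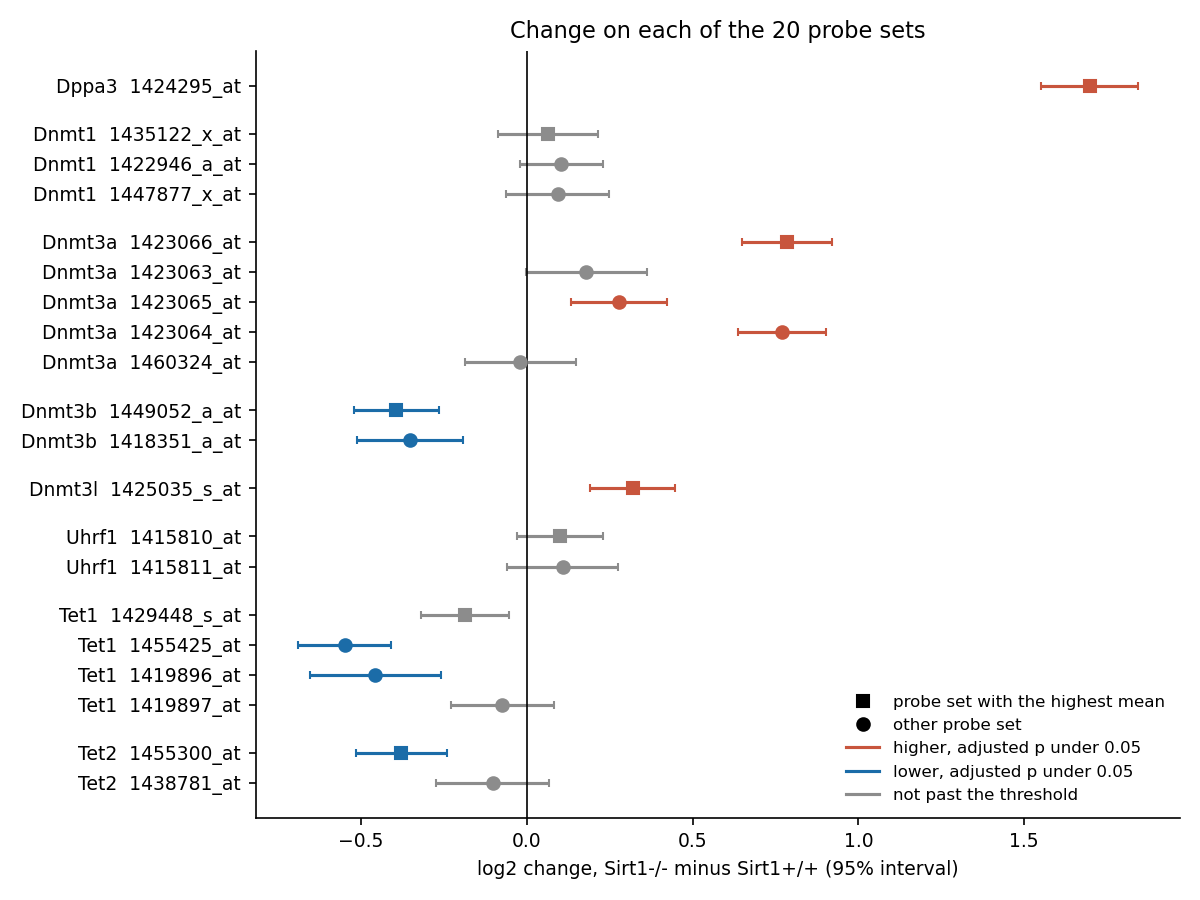
Log2 change (Sirt1-/- minus Sirt1+/+, horizontal axis) with its 95% interval for each of the 20 probe sets, adjusted over all probe sets; squares mark the probe set with the highest mean of each gene, red and blue those past the threshold. Probe sets of Dnmt3a run from -0.02 to 0.79 and those of Tet1 from -0.55 to -0.07, whereas those of Dnmt1, Dnmt3b and Uhrf1 lie close together.

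The other genes of the erasing pathway moved in both directions, beside 12.5% of all genes that rose and 17.5% that fell. Tet3, the eraser of the oocyte and early embryo, was dim, with a knockout level of 3.71 ± 0.26 (SD, n = 3) and a log2 change of -0.29, and did not pass (limma, adjusted p = 0.138). Of 10 measured genes made up of Tet3, CXXC-domain partners and genes of Tet cofactor supply, 3 fell and none rose in limma (none at an unadjusted p under 0.05 either), with a median of -0.24 on the log2 scale. The CXXC protein gene Cxxc5 fell by 0.59, the O-GlcNAc transferase gene Ogt, whose product binds Tet proteins, by 0.56 and the isocitrate dehydrogenase gene Idh2 by 0.22. Of 15 measured base excision, deaminase and Gadd45 genes, 7 rose and 3 fell, with a median of 0.15. Apobec2, a deaminase family gene, rose by 1.32, from 5.09 ± 0.07 to 6.41 ± 0.07 (SD, n = 3 each), while its other probe set read 0.05 and did not pass. The stress-induced gene Gadd45g rose by 1.09. The ligase gene Lig3 fell by 0.59 on the probe set used, while its other 4 read between -0.02 and 0.28 and did not pass.

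Of 8 measured genes for proteins that read methylated CpGs, 2 fell and none rose in limma (3 lower and 2 higher at an unadjusted p under 0.05). Zbtb33, which encodes Kaiso, fell by 0.68 and Zbtb38, of the same family, by 0.43, and for both the other probe sets were dimmer and did not pass. The median of the 8 was -0.06, and 1 to 2 genes counted as higher with repeated quantile normalisation, without the dimmest 40% of genes, with probe sets averaged, with an intensity trend or with no moderation. Of 20 partners and recruiters of the methyltransferases, 3 rose and 8 fell, with a median of -0.01. For comparison with the lists of this paragraph, 12.5% of all genes rose and 17.5% fell. The histone demethylase genes Kdm1b and Kdm1a fell by 0.71 and 0.44. Usp7, for a deubiquitinase that binds Dnmt1 and Uhrf1, fell by 0.44 on the probe set used and rose by 0.40 on another. The methyltransferase gene Nsd1 fell by 0.39 and likewise rose by 0.91 on another probe set. The 8 that fell became 5 without wild-type replicate 1, wild-type replicate 3 or knockout replicate 2. Of 4 measured genes of methyl donor supply, Ahcy, which clears the inhibitor S-adenosylhomocysteine, rose by 0.50. The other 3 did not pass, and the median of the 4 was -0.16. At an unadjusted p under 0.05 in limma, the 1 higher gene was Ahcy itself, and 2 were lower. In this list 1 gene counted as lower without the dimmest 40% of genes, with probe sets averaged or without wild-type replicate 3, and 2 with an intensity trend.

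**Figure D4:**
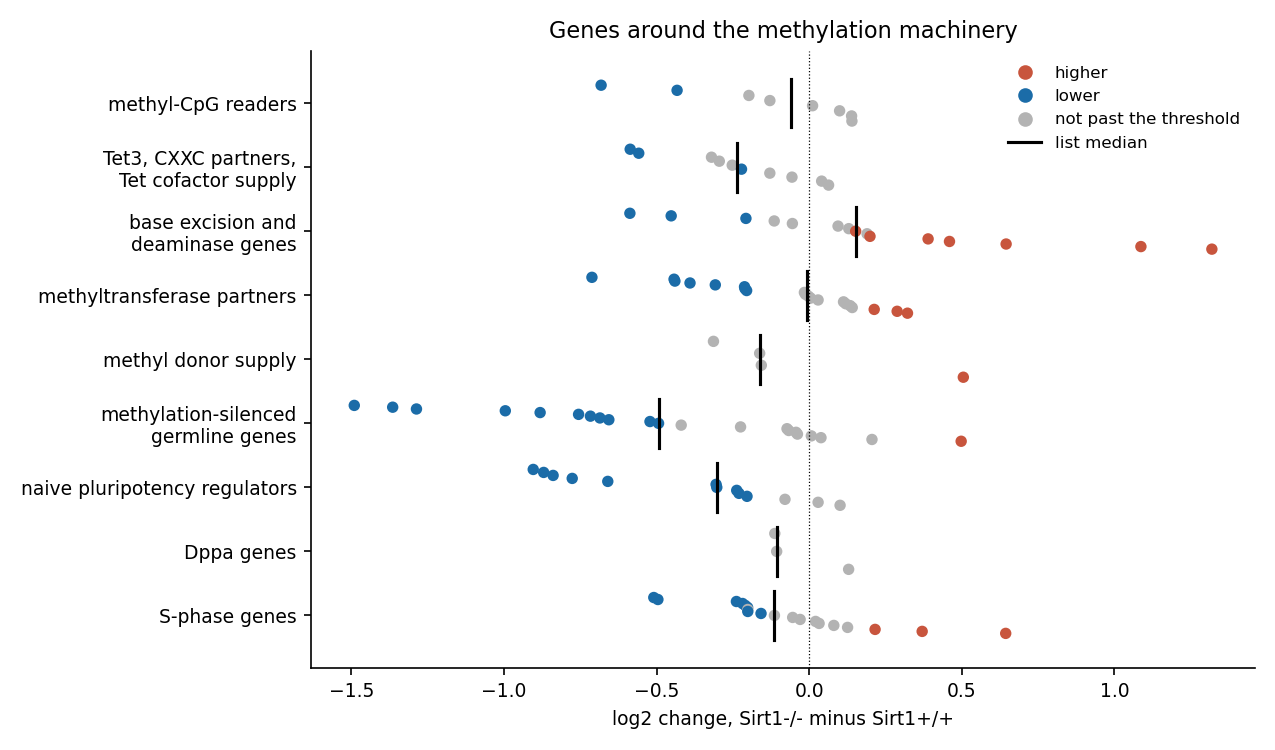
Log2 change (Sirt1-/- minus Sirt1+/+, horizontal axis) of every measured gene in 9 lists, 1 point per gene, coloured by the limma call, with a black line at the list median. The points of base excision and deaminase genes reach from -0.59 to 1.32, and 11 of 21 germline genes lie on the lower side past the threshold.

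Regulators and partners of the members by role were set beside them. Of 13 naive pluripotency regulators 10 fell and none rose in limma (none at an unadjusted p under 0.05), with a median of -0.30 and 1 higher when probe sets were averaged or an intensity trend was used. Prdm14, which represses Dnmt3b and Dnmt3l in naive cells, fell by 0.84, from 8.20 ± 0.05 to 7.36 ± 0.06 (SD, n = 3 each; limma, adjusted p = 0.000152). Klf5 fell by 0.87 and Klf2 by 0.78. The other Dppa genes measured, Dppa2, Dppa4 and Dppa5a, read -0.11, 0.13 and -0.11 and did not pass in limma (1 higher and 1 lower at an unadjusted p under 0.05). Of 19 S-phase genes, whose activity Dnmt1 and Uhrf1 follow in cycling cells, 3 rose and 8 fell, with a median of -0.11. Shares over all genes were 12.5% higher and 17.5% lower. Gins2 rose by 0.64 and Cdt1 by 0.37, both replication factors, and all 3 that rose lie on chromosome 8. Whether their position has a part in this was not tested. Pola1, a subunit of DNA polymerase alpha, fell by 0.51 and the cyclin gene Ccne2 by 0.50. The 8 that fell became 2 without wild-type replicate 1, 3 without knockout replicate 2, and 5 without wild-type replicates 2 or 3 or knockout replicate 3.

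Genes whose silencing depends on DNA methylation were listed as well. Of 21 measured germline genes of the kind silenced by promoter methylation, 1 rose and 11 fell, with a median of -0.49, and 13 of the 21 lay below the median level of all genes. Sohlh2, a germ cell transcription factor, fell from 8.31 ± 0.10 to 6.95 ± 0.07 (SD, n = 3 each), Stk31 fell by 1.29, and Taf7l fell from 5.97 ± 0.04 to 4.97 ± 0.38 (SD, n = 3 each). Tex13b fell from 5.23 ± 0.49 to 3.73 ± 0.45 (SD, n = 3 each), the widest spread of these. Of 26 imprinted genes, where methylation marks the parental copy, 6 rose and 11 fell. As above, 12.5% of all genes rose and 17.5% fell. The noncoding RNAs Meg3 and Rian of chromosome 12 fell by 5.41 and 5.09, and Mirg beside them fell by 2.11, with knockout levels of Rian and Mirg under the arrays' medians. Snhg14 of chromosome 7 fell from 7.71 ± 0.29 to 2.79 ± 0.47 (SD, n = 3 each), under the arrays' lower quartile, so that its fold is limited by background. The 6 that rose included Sgce at 1.22 and Peg10 at 0.93, neighbours on chromosome 6, so that the list did not move in 1 direction.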

How the data were processed

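RNA of 3 Sirt1+/+ and 3 Sirt1-/- samples was measured on 1 array each and grouped by the titles in the labels. The authors deposited log2 levels; the submitters' processing notes name RMA and Partek 6.5, with settings not given in the sources used here, and the log2 scale was taken from the range. RMA normalises arrays by quantiles, so a shift of all genes would be removed. Probe sets annotated to several symbols (932) or none (9160) and the 64 controls were not used for genes. Each of 18193 genes was read on its probe set with the highest mean. Genes, and separately all probe sets, were fitted with limma 3.58.1 (R 4.3.3), two-sided, with Benjamini-Hochberg adjustment at 0.05. Differences within arrays were tested by exact permutation (scipy 1.17.1). The number of arrays limits the precision. Genes of each list were named if among the 4 with the largest change past the threshold, beside Tet3, Prdm14, neighbours of Dppa3 and genes closest in profile; Nanog, Sirt1 and the stem cell markers Pou5f1, Sox2, Zfp42 and Utf1 were named too, and Fn1, Dppa2, Dppa4, Dppa5a, Col1a1, Col1a2, Col3a1, Sgce and Peg10 after their values were seen. Members and lists were chosen with earlier results of these data known. Alternatives were other scalings, filters, variance models, a replicate block, thresholds and each array left out. The procedure was tested on simulated data. Chromosome order and sequences came from RefSeq (GRCm38.p6), with 18031 genes matched.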

Additional observations from a re-analysis of the deposited data

How the results depend on the processing

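Over 16 other settings, Dppa3 passed in 16 of 16, with log2 changes of 1.67 to 1.72. Dnmt3a, Dnmt3b, Dnmt3l and Tet2 passed in 15 of 16 each, Tet1 in 6, Uhrf1 in 1 and Dnmt1 in 0, and no member changed direction. The change of Dnmt3a ranged from 0.40 with probe sets averaged to 0.81, that of Tet1 from -0.32 with probe sets averaged to -0.17, and that of Tet2 from -0.40 to -0.24 with probe sets averaged. Tested against a 1.5-fold change (limma's treat), 1 member passed, with 1 higher and 0 lower, as did 1 of its probe sets, 22 listed genes in place of 99 and 363 genes in all in place of 5462. At an adjusted p under 0.01, 3356 genes passed in all. Arrays of the same number deviated from their genotypes with a correlation over genes of 0.05, -0.09 and 0.20. Such values cannot decide whether like-numbered samples were handled together, and the labels do not say. With the replicate number as a block 4700 genes and 9 member probe sets passed, 1 methyl donor gene counted as lower in place of 0 and 2 primed epiblast markers as higher in place of 1, and the Tet1 call was lost (adjusted p = 0.0693); it was also lost with arrays centred on their medians (adjusted p = 0.0810). In germline genes of the kind silenced by methylation 7 were lower without the dimmest 40% of genes, since dim genes leave the test. Probe positions, RNA quality of single samples and protein levels were not analysed here, and dim genes such as Tet3 lie near background, where a measured fold is limited.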

Other observations

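Dppa3 is known to mark primordial germ cells, and Dnmt3a rises in the primed epiblast. Dnmt3b, the more abundant de novo enzyme in implantation-stage epiblast, fell by 0.39 here. Markers of primordial germ cells and of the primed epiblast were counted. Of 6 measured primordial germ cell markers, 4 were called lower by limma and 0 higher (0 higher also at an unadjusted p under 0.05). Prdm1, which specifies germ cells, fell by 0.68, the RNA-binding gene Dazl by 0.49, Dnd1 by 0.33 and the receptor gene Kit by 0.24. Of 8 measured primed epiblast markers, 1 rose and 3 fell. Among all genes 12.5% rose and 17.5% fell. Otx2, a driver of the exit from naive pluripotency, fell from 7.49 ± 0.13 to 5.92 ± 0.15 (SD, n = 3 each). Foxd3 fell by 0.44, while Zic5 rose by 1.11. Dkk1 fell by 0.52, from 3.86 to 3.34, near the arrays' lower quartile, and its other probe set read -0.21 and did not pass. The count of higher genes in this list was 2 with repeated quantile normalisation, with arrays centred on their medians, with probe sets averaged, with an intensity trend, and without wild-type replicates 2 or 3 or knockout replicate 3.

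Profiles over the 6 arrays were compared by Euclidean distance after centring, among 8880 genes above the median level whose symbol is no predicted or clone name, as a description of 2 groups of arrays. Closest to Dppa3 were G0s2, an inhibitor of lipolysis, at a distance of 0.141 log2 units, Apela, Rpl14, Plk3 and Trak1, with changes of 1.57 to 1.70. Closest to Dnmt3a were Eif1b at 0.0464, Mthfd2, Srgap2, Dcaf12l1 and Bcat1, with changes of 0.72 to 0.78. Srgap2 fell by 0.76 on another probe set. Trak1 read changes of 0.13 and -0.04 on 2 other probe sets, which did not pass, and rose by 1.17 on a further one. Rpl14, Trak1 and Eif1b lie on chromosome 9, and whether a shared position has a part was not tested. All 10 genes passed in limma, but they were picked on these arrays for profiles close to those of members that passed.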
